A study of Mus musculus with 18 samples.

Results

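The enzymes of the upper, energy-investing part of glycolysis were analysed in retinas and in photoreceptor-like cells that received a normoxia-stable form of the hypoxia-inducible transcription factor HIF1A. The 9 genes were taken by name from the 78239 genes in the count tables: *Hk1* and *Hk2* (hexokinases), *Gpi1* (glucose-6-phosphate isomerase), *Pfkl*, *Pfkm* and *Pfkp* (the liver, muscle and platelet isozymes of phosphofructokinase), *Aldoa* and *Aldoc* (aldolases) and *Tpi1* (triosephosphate isomerase). All 9 were found in both tables. All 9 passed the filter on low counts in the retina, and 8 passed it in the cells, where *Aldoc* was too low to be tested.

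Mice were injected subretinally between postnatal days 29 and 32 with adeno-associated virus carrying mouse *nsHif1a* (AAV::*nsHif1a*) or enhanced green fluorescent protein (AAV::eGFP), and retinal mRNA was sequenced at 3 weeks post injection (wpi), with 5 libraries per group. Both transgenes were driven by a promoter active in rods, and only part of the retinal area was transduced, so that each library mixes transduced and untransduced cells. The sample labels give C57BL/6J for these mice, whereas the methods of the study name wild-type 129S6 mice. The second experiment used 661W cells, a photoreceptor-like line derived from a mouse retinoblastoma, kept at normal oxygen and harvested 20 h after transfection with a plasmid expressing *nsHif1a* or eGFP under the ubiquitous CMV promoter, with 4 libraries per group of this 1 line. The encoded nsHIF1A carries a Myc-tag, and 3 residues (2 prolines and 1 asparagine) are replaced by alanine.

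Glucose entering a cell is phosphorylated by hexokinase, converted to fructose 6-phosphate by glucose-6-phosphate isomerase, phosphorylated again by phosphofructokinase, the main control point of the pathway, and split by aldolase into triose phosphates that triosephosphate isomerase interconverts. Several steps are served by isozymes encoded by separate genes, and rods of the mammalian retina are known for high aerobic glycolysis and for *Hk2*. HIF1 is a classical activator of genes of glycolysis and binds DNA at hypoxia response elements with the core ACGTG or GCGTG.

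Sequences that carry this core next to annotated start sites are shown for the phosphofructokinase genes, whose isozymes differed in their response, and for *Hk2*. RefSeq promoter windows of 250 bases before and 50 bases after a start site were available for all 9 genes (16 windows, taken from a table on GRCm38.p6 and placed on GRCm39 by exact match). Each line gives the GRCm39 position, the strand of the gene and 25 bases read 5′ to 3′ on that strand, with ACGTG or GCGTG, or their reverse complements CACGT and CACGC, in capitals; CACGTG contains the ACGTG core on both strands.
Pfkl, chr10:77845726-77845750, minus strand: ttgtagactgGCGTGcgctccgcct
Pfkp, chr13:6698929-6698953, minus strand: ctaacagaacGCGTGtccatactat
Pfkp, chr13:6698861-6698885, minus strand: ccccgcccttGCGTGagtcccgccc
Pfkp, chr13:6698816-6698840, minus strand: ctcgggcgggGCGTGggcggctcct
Pfkm, chr15:97990325-97990349, plus strand: taagtatgcCACGTGaagtaagtaa
Hk2, chr6:82751647-82751671, minus strand: ccacggaacaCACGTcccaactctg
Hk2, chr6:82751473-82751497, minus strand: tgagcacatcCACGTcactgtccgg
The sites of *Pfkl* and *Pfkp* lie in the non-coding part of an annotated exon, and those of *Hk2* and the shown site of *Pfkm* lie outside the annotated genes. Further sites of *Pfkm* are not printed: CACGT in an intron (chr15:98006098-98006122) and CACGC in the non-coding part of an exon (chr15:98006193-98006217). Over the 250 bases before the start, 11 of the 16 windows (68.8%) held a core on either strand, against 38.6% of 32851 windows in the table. The windows of a gene can overlap, and those of *Pfkm* and of *Aldoa* each include a pair that holds the same site, so the 11 are not separate sites. The windows of *Gpi1* and *Tpi1* held none. A core is a match of letters, not a binding site: *Pfkm* and *Aldoc*, which did not rise in the retina, had cores, and *Gpi1* and *Tpi1*, which did, had none in these windows.

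The total per library was 12898220 to 17809585 counts. Retinal *Hif1a* averaged 668 ± 26.1 CPM in the AAV::eGFP group and 687 ± 31.6 CPM in the AAV::*nsHif1a* group (SD, n = 5 each; log2FC 0.05, adjusted *p* = 0.50 in limma), whereas in the cells it rose from 157 ± 6.79 to 1560 ± 384 CPM (n = 4 each; log2FC 3.26, adjusted *p* = 1.2e-05). CPM denotes the counts of a gene relative to a fixed library total, scaled by the trimmed mean of M values (TMM), log2FC the log2 ratio of *nsHif1a* over eGFP, and a gene passed the test at an adjusted *p* under 0.05 over all genes tested. Over all genes, 625 rose and 466 fell in the retina, and 440 rose and 546 fell when library totals were used without scaling. All 10 rod markers were lower with AAV::*nsHif1a* and 4 passed the test, against 2.47% of all genes tested that passed and were lower. In sum, the rod markers reached 49500 to 54600 CPM in control retinas and 38800 to 51600 CPM in AAV::*nsHif1a* retinas. In bulk RNA, fewer rods and less RNA per rod cannot be told apart. The lens markers summed to 634 to 2820 CPM in control retinas and to 920 to 19000 CPM in AAV::*nsHif1a* retinas. The microglia and macrophage markers summed to 27 to 152 and 52.4 to 153 CPM. All 6 lens markers and all 8 microglia and macrophage markers had a log2FC above 0 (medians 2.43 and 1.1). Of these, 0 of 6 and 0 of 8 passed the test. Of all 18859 genes tested, 9315 had a log2FC above 0, and 3.31% passed and were higher. *Xist*, which is transcribed from the inactive X chromosome, was counted 1 to 3 times in AAV::eGFP libraries 3 to 5 and at least 19492 times in the other retinal libraries. The 10 rod markers summed to only 13.4 to 18.5 CPM and the 7 cone markers to 0.976 to 2.25 CPM in the 661W cells, with *Nrl*, *Nr2e3* and *Prph2* at 0 in all libraries that received *nsHif1a*.

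In the retina, 7 of the 9 upper glycolysis genes rose with AAV::*nsHif1a* and none fell. The background over all 18859 genes tested was 3.31% that passed and were higher and 2.47% that passed and were lower. Each of the 5 steps contained at least 1 gene that rose, by a log2FC of 0.23 to 0.46, so that 0 of 9 were past the log2FC of 0.5 that the study used for calling genes (background 1.08%). The groups did not overlap for the 7 genes that rose, against 3.25% of all genes tested that were higher without overlap. The median log2FC of the 9 genes was 0.28, and that of all genes tested was -0.002. Together the 9 genes took 0.557% to 0.591% of the scaled counts in control retinas, and 0.662% to 0.731% in AAV::*nsHif1a* retinas. Rod RNA, the lens markers, the microglia and macrophage markers and the *Xist* class moved with the groups in these same libraries. The part of the lower rod RNA and of the microglia and macrophage RNA in the result was not tested. With the lens markers as a covariate all 7 genes still passed, and with the *Xist* class as a covariate 6 passed, *Aldoa* being lost (log2FC 0.18, adjusted *p* = 0.089). AAV::*nsHif1a* libraries 2 and 5, whose lens markers (1299 and 920 CPM in sum) lay within the range of the controls, held the highest level of the group for 5 and 3 of the 9 genes. Their rod markers summed to 44320 and 38760 CPM, the latter the lowest of the group. Library 1, with the highest rod sum (51570 CPM, within the range of the controls), held the lowest level for 5 genes. Library 4, at 44200 CPM and thus close to library 2, held the lowest for 4.

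*Hk1* (ENSMUSG00000037012), the hexokinase found in most tissues, lies on the minus strand of chr10:62104621-62215687. Its levels in AAV::eGFP libraries 1 to 5 were 748, 741, 746, 739 and 754 CPM, and those in AAV::*nsHif1a* libraries 1 to 5 were 855, 916, 845, 829 and 965 CPM. The control retinas hardly varied, and every AAV::*nsHif1a* retina lay above them. *Hk1* rose from 746 ± 5.93 to 882 ± 56.8 CPM (SD, n = 5 each), a log2FC of 0.24 (SE 0.04, adjusted *p* = 0.0053 in limma).

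*Hk2* (ENSMUSG00000000628; chr6:82699740-82751469, minus strand), the inducible hexokinase, was 451, 404, 569, 605 and 588 CPM in AAV::eGFP libraries 1 to 5. It was 644, 781, 645, 667 and 755 CPM in AAV::*nsHif1a* libraries 1 to 5. The groups did not overlap, but the control libraries formed a low pair (1 and 2, with *Xist* counts) and a higher trio (3 to 5, without them), unlike *Hk1*. *Hk2* rose by a log2FC of 0.41 (SE 0.11, adjusted *p* = 0.043), the least certain of the 7 changes. It missed the threshold in 6 of the 10 fits without 1 library: without AAV::eGFP library 1 (log2FC 0.33) or 3 (0.46), and without AAV::*nsHif1a* library 1 (0.43), 2 (0.35), 3 (0.47) or 5 (0.38). Compared within the libraries that had *Xist* counts, or with the *Xist* class as a covariate, the log2FC of *Hk2* was 0.71 (adjusted *p* = 0.0015 with the covariate).

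*Gpi1* (ENSMUSG00000036427; chr7:33900755-33929780, minus strand), the isomerase between the 2 phosphorylation steps, was 546, 540, 509, 527 and 541 CPM with AAV::eGFP. With AAV::*nsHif1a* it was 666, 737, 714, 699 and 711 CPM, well above every control. The log2FC was 0.41 (SE 0.04, adjusted *p* = 0.00015). *Gpi-ps*, a pseudogene that shares 8.41% of the 50-base words of *Gpi1* transcripts, held 41.5% to 45.7% as many counts as *Gpi1* in these retinas, so the assignment of reads between the 2 is uncertain. It rose by a log2FC of 0.43, and with its counts added *Gpi1* still passed.

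The phosphofructokinase genes did not move together. *Pfkl* (ENSMUSG00000020277; chr10:77818084-77845922, minus strand) was 437, 418, 383, 398 and 407 CPM with AAV::eGFP and 491, 589, 560, 546 and 637 CPM with AAV::*nsHif1a*. Its log2FC of 0.46 (SE 0.06, adjusted *p* = 0.00096) was the highest of the 9 genes over all libraries, but *Hk2* exceeded it with the *Xist* class as a covariate (0.71 against 0.40) and without AAV::eGFP library 3 (0.46 against 0.44), 4 (0.51 against 0.44) or 5 (0.52 against 0.45). *Pfkp* (ENSMUSG00000021196; chr13:6629798-6698970, minus strand) was 352, 367, 371, 377 and 371 CPM with AAV::eGFP and 384, 458, 451, 447 and 503 CPM with AAV::*nsHif1a*.
For *Pfkp* only AAV::*nsHif1a* library 1 came near the controls, and the log2FC was 0.28 (SE 0.05, adjusted *p* = 0.009). *Pfkm* (ENSMUSG00000033065; chr15:97990451-98031417, plus strand) was 172, 165, 159, 155 and 165 CPM with AAV::eGFP and 160, 162, 168, 158 and 165 CPM with AAV::*nsHif1a*. The groups of *Pfkm* overlapped fully, and the 95% confidence interval of its log2FC ran from -0.08 to 0.08. *Gm26513*, a gene model that shares 19.55% of the 50-base words of *Pfkm*, had at most 1.32% as many counts in these retinas. Reads within shared words may be counted for neither gene, so the low count does not show how many reads *Pfkm* lost. The coding sequences of the phosphofructokinases were 67.5% to 69.4% identical to each other, and those of the 2 hexokinases 71.2%, but *Hk1*, *Hk2* and *Pfkp* shared no 50-base word with any other gene and *Pfkl* 0.04% of its words.

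*Aldoa* (ENSMUSG00000030695; chr7:126393822-126399923, minus strand), the widely expressed aldolase, was 1959, 1764, 1724, 1687 and 1803 CPM with AAV::eGFP and 2062, 2151, 2124, 2030 and 2085 CPM with AAV::*nsHif1a*. It rose by a log2FC of 0.23 (SE 0.04, adjusted *p* = 0.0074), with AAV::eGFP library 1 close below the lowest AAV::*nsHif1a* library. An overlapping gene model, *Gm57854*, shares 33.6% of the 50-base words of *Aldoa* and had at most 0.158% as many counts in these retinas. Reads that lie in both models may be counted for neither, so the low count does not show how many reads *Aldoa* lost. *Aldoc* (ENSMUSG00000017390; chr11:78213619-78218889, plus strand), the aldolase known from brain, was 520, 482, 481, 495 and 530 CPM with AAV::eGFP and 552, 580, 550, 479 and 537 CPM with AAV::*nsHif1a*. Its groups overlapped, and it did not pass (log2FC 0.11, SE 0.05, adjusted *p* = 0.23). *Tpi1* (ENSMUSG00000023456; chr6:124787549-124791273, minus strand), the only gene of its step, was 723, 689, 698, 617 and 679 CPM with AAV::eGFP and 807, 931, 907, 872 and 856 CPM with AAV::*nsHif1a*. It rose by a log2FC of 0.38 (SE 0.05, adjusted *p* = 0.0013) with no overlap.

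**Figure D1:**
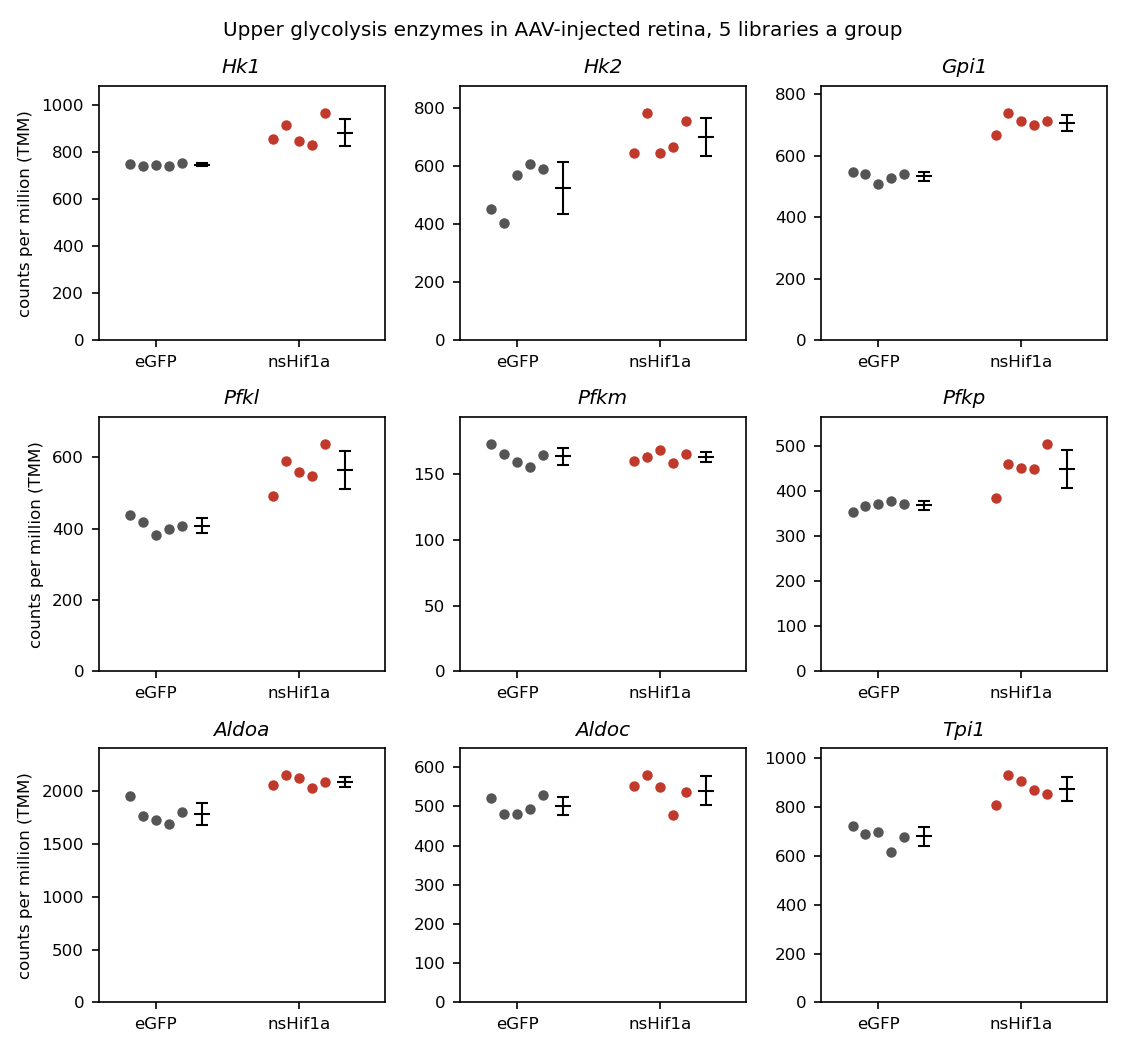
Level of each upper glycolysis gene (vertical axis, TMM-scaled CPM from 0) in retinas injected with AAV::eGFP (grey) or AAV::*nsHif1a* (red); points are libraries 1 to 5 from left to right, and the bar is the mean ± SD of the group. The red points lie above all grey points for 7 genes and overlap them for *Pfkm* and *Aldoc*, and the grey points of *Hk2* fall into a low pair and a higher trio.

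In the 661W cells, 3 of the 8 genes tested rose with *nsHif1a* and none fell, against a background of 2.06% higher and 0.426% lower among 15962 genes tested. These were *Pfkl*, *Pfkp* and *Tpi1*, and *Pfkl* alone passed a log2FC of 0.5 (background 1.21%). For 6 of the 8 genes the groups did not overlap and *nsHif1a* was higher, against 7.51% of all genes tested. The median log2FC of the 8 genes was 0.20, and that of all genes tested was -0.001. The 9 genes together took 0.178% to 0.181% of the scaled counts with eGFP and 0.201% to 0.222% with *nsHif1a*.

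*Pfkl* was 80.7, 84.1, 64.5 and 66.5 CPM in eGFP libraries 1 to 4 and 145, 150, 127 and 115 CPM in *nsHif1a* libraries 1 to 4. The lowest transfected level thus exceeded the highest control, and in both groups libraries 1 and 2 were above 3 and 4. Its log2FC was 0.88 (SE 0.11, adjusted *p* = 0.0061). *Pfkp* was 58.3, 57.4, 64.9 and 63.5 CPM with eGFP and 82.0, 77.1, 91.2 and 93.6 CPM with *nsHif1a*, here with libraries 3 and 4 above 1 and 2 (log2FC 0.48, SE 0.07, adjusted *p* = 0.011). *Pfkm* was 59.4 to 70.7 CPM with eGFP and 58.2 to 69.7 CPM with *nsHif1a*, with a 95% confidence interval of the log2FC from -0.24 to 0.10. As in the retina, the muscle isozyme was the phosphofructokinase without a detectable rise.

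*Tpi1* was 346, 355, 327 and 325 CPM with eGFP and 449, 433, 460 and 432 CPM with *nsHif1a*. Both groups were tight and far apart, with a log2FC of 0.39 (SE 0.05, adjusted *p* = 0.0034). *Hk1* was 255, 258, 257 and 256 CPM with eGFP and 282, 276, 320 and 304 CPM with *nsHif1a* (log2FC 0.19, adjusted *p* = 0.065). *Hk2* was 160, 161, 165 and 167 CPM with eGFP and 173, 171, 218 and 203 CPM with *nsHif1a* (log2FC 0.21, adjusted *p* = 0.14). Neither hexokinase passed, although the groups did not overlap, and *nsHif1a* libraries 3 and 4 stood above 1 and 2 for both. *Gpi1* was 279 to 287 CPM with eGFP and 290 to 325 CPM with *nsHif1a* (log2FC 0.11, adjusted *p* = 0.21). *Aldoa* was 533 to 567 CPM and 546 to 619 CPM (log2FC 0.07, adjusted *p* = 0.41). *Aldoc* was nearly absent at 0.294 to 0.721 CPM and 0.474 to 0.773 CPM.

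**Figure D2:**
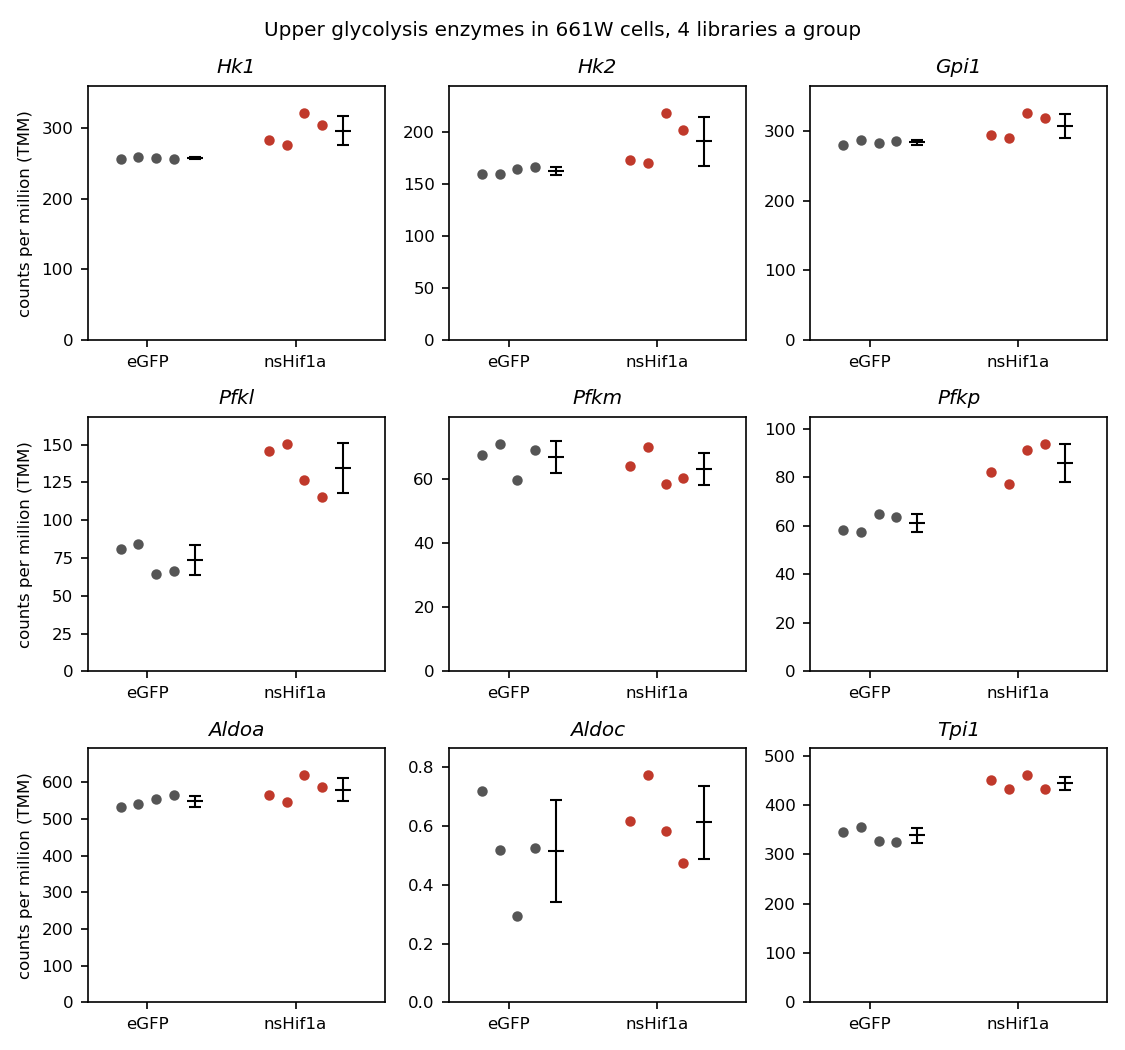
Level of each upper glycolysis gene (vertical axis, TMM-scaled CPM from 0) in 661W cells transfected with eGFP (grey) or *nsHif1a* (red); points are libraries 1 to 4 from left to right, and the bar is the mean ± SD of the group. *Pfkl*, *Pfkp* and *Tpi1* are clearly separated, *Hk1*, *Hk2* and *Gpi1* rise mainly in libraries 3 and 4, and *Aldoc* stays under 0.8 CPM.

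The cell libraries fell into 2 sets, replicates 1 and 2 and replicates 3 and 4, and the response of some upper glycolysis genes differed between them. The sets were recognised from these same libraries. Counts differed within a set by a mean chi-square per gene of 1.84 to 2.06, where counting noise alone would give about 1. Between sets the value was 7.71 to 36.88. The *p*-values below are therefore measured against a small spread and are not independent of the split. The log2FC of *Hk2* was 0.10 in replicates 1 and 2 and 0.34 in replicates 3 and 4, a difference of 0.24 (adjusted *p* = 0.0034 in limma for the interaction). That of *Hk1* was 0.12 and 0.28 (difference 0.16, adjusted *p* = 0.016), and that of *Gpi1* was 0.04 and 0.18 (difference 0.14, adjusted *p* = 0.027). Such an interaction passed for 19.6% of all genes tested, so it was common in these cells. For *Pfkl* the log2FC was 0.84 and 0.88 in the respective sets, for *Pfkp* 0.46 and 0.52, and for *Tpi1* 0.33 and 0.45, and the differences did not pass (adjusted *p* = 0.74, 0.62 and 0.08). Without *nsHif1a* library 1 or without library 2, *Hk1*, *Hk2* and *Gpi1* also passed and the count was 6 of 8, where 2.72% and 2.82% of all genes tested were higher. Without *nsHif1a* library 3 or 4 the count was 4, *Hk1* being added, but 16.2% of all genes were then higher. With the sets as a covariate it was 5, *Hk1* and *Hk2* being added, with 7.77% of all genes higher.

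**Figure D3:**
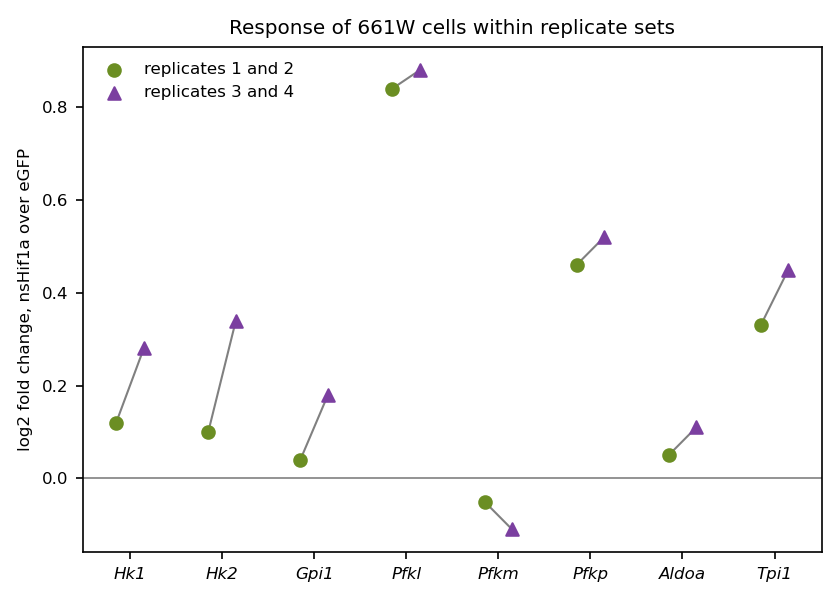
Log2 fold change of *nsHif1a* over eGFP (vertical axis) for the 8 upper glycolysis genes tested in 661W cells, within replicates 1 and 2 (circles) and replicates 3 and 4 (triangles). *Hk1*, *Hk2* and *Gpi1* climb between the sets, and *Pfkl*, *Pfkp* and *Tpi1* are high in both.

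When the responses were compared in a single model of all 18 libraries, *Gpi1* was the only 1 of the 9 genes whose log2FC differed between retina and cells. It was larger in the retina by 0.29 (SE 0.05, adjusted *p* = 0.011), against 1.08% of 20999 genes with a larger and 1.25% with a smaller response in the retina. *Gpi-ps* differed likewise, by 0.36 (adjusted *p* = 0.017). *Pfkl* was the converse case, with a log2FC lower in the retina (difference -0.36, 95% confidence interval -0.61 to -0.10) that did not pass (adjusted *p* = 0.14). It passed when cell libraries with the same replicate number were paired by a replicate block (difference -0.39, adjusted *p* = 0.031), and when cell eGFP library 2 (-0.48) or cell *nsHif1a* library 3 (-0.50) or 4 (-0.51) was left out. *Pfkp* also passed without cell *nsHif1a* library 2 (-0.32), and *Aldoa* without library 3 (0.22) or 4 (0.21). The differences of *Tpi1* (0.00, 95% confidence interval -0.15 to 0.15) and *Hk1* (0.03, -0.10 to 0.15) were close to 0. The interval of *Hk2* was wide, from -0.17 to 0.50. Time after gene delivery, promoter, the share of cells that received *nsHif1a* and the total *Hif1a* RNA level differ between the experiments and cannot be told apart from tissue against cell line.

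**Figure D4:**
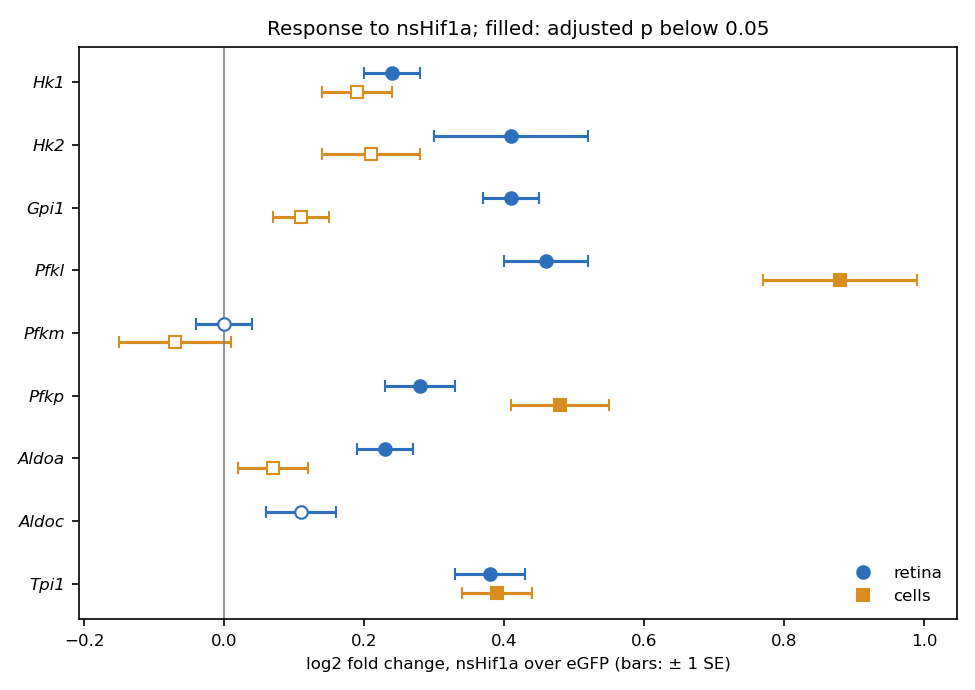
Log2 fold change of *nsHif1a* over eGFP (horizontal axis) with ± 1 SE for each upper glycolysis gene in the retina (blue circles) and in 661W cells (orange squares); filled symbols passed the test. *Pfkl* lies at 0.46 in the retina and 0.88 in the cells, *Gpi1* at 0.41 and 0.11, and *Tpi1* at 0.38 and 0.39; *Aldoc* was not tested in the cells.

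To compare levels between genes, CPM were divided by the length of the merged exons in kilobases and scaled over all 18 libraries. Among control retinas, *Aldoa* (411 ± 24.5 CPM per kb, SD, n = 5) and *Tpi1* (394 ± 22.8) were the highest and overlapped. *Hk1* (156 ± 1.47), *Aldoc* (127 ± 5.91), *Gpi1* (110 ± 3.08) and *Pfkl* (98.2 ± 4.92) followed, of which *Gpi1* and *Pfkl* overlapped. *Pfkp* (76.9 ± 1.98) and *Hk2* (68.4 ± 11.8) overlapped below them, and *Pfkm* (20.5 ± 0.817) was the lowest. In the control cells the order was *Tpi1* (181 ± 9.02, n = 4), *Aldoa* (117 ± 2.31), *Gpi1* (54.0 ± 0.612), *Hk1* (49.8 ± 0.658), *Hk2* (19.7 ± 0.33), *Pfkl* (16.5 ± 2.28), *Pfkp* (11.8 ± 0.694), *Pfkm* (7.74 ± 0.544) and *Aldoc* (0.121 ± 0.0414), and no neighbours overlapped. Per length, *Pfkm* was the lowest phosphofructokinase and *Pfkl* the highest in both systems. In counts without length, the mean share of *Pfkm* in the control cells (33.0% of the family) was above that of *Pfkp* (30.4%). Their ranges overlapped (31.5% to 34.7% and 27.1% to 34.4%), and in library 3 *Pfkp* was the higher.

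Because isozymes of a step differed in their response, the make-up of each family was computed as the share of each isozyme in the family's counts per exon length. *Pfkl* made up 48.6% to 52.5% of phosphofructokinase in control retinas, and 53.7% to 54.9% in AAV::*nsHif1a* retinas, an increase of 4.09 percentage points (exact 2-sided permutation test, *p* = 0.0079, the smallest that 5 against 5 libraries allow, adjusted *p* = 0.02 over 5 shares). The share of *Pfkm* was 10% to 10.8% and then 7.40% to 9.19%, lower by 2.27 points (difference -2.27, adjusted *p* = 0.02). The share of *Pfkp* overlapped between groups, at 39.4% ± 1.69 and 37.5% ± 0.561 (adjusted *p* = 0.079). *Pfkl* gained and *Pfkm* lost share, while the level of *Pfkm* itself did not change detectably. In the libraries with *Xist* counts alone, the increase of *Pfkl* was 2.67 points. The 2-sided *p* of this test doubles the smaller tail, so that 5 against 2 libraries cannot give a *p* under 0.095 in it.

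In the cells the shift had the same direction. *Pfkl* rose from 45.6% ± 3.78 to 55.4% ± 4.05 (SD, n = 4 each; difference 9.83 points), and *Pfkm* changed from 21.5% ± 1.01 to 13.6% ± 0.643 (difference -7.91 points). The groups did not overlap for either, but an exact *p* of 0.029, the smallest possible for 4 against 4, became 0.071 after adjustment over 5 shares. The shift of *Pfkl* was 9.88 points in replicates 1 and 2 and 9.78 in replicates 3 and 4, although its control share was 48.8% in the first set and 42.3% in the second. The *Pfkp* share overlapped between groups, at 33.0% ± 3.75 and 31.1% ± 4.30 (adjusted *p* = 0.60). With *nsHif1a*, *Pfkl* made up 54.3% ± 0.588 in retina and 55.4% ± 4.05 in cells.

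The *Hk2* share of hexokinase was 30.3% ± 3.71 and 33.0% ± 1.09 in the retina (adjusted *p* = 0.21) and 28.4% ± 0.469 and 28.7% ± 1.09 in the cells (adjusted *p* = 0.60), so that no shift between the hexokinases was detectable over all libraries. Among control retinas it was 25.4% to 33.8%, with libraries 1 and 2 low (27.3% and 25.4%), as for the *Hk2* level. Against these alone, which have *Xist* counts like all AAV::*nsHif1a* libraries, the *Hk2* share was higher by 6.67 points without overlap. With the smaller tail doubled, 5 against 2 libraries cannot give an exact *p* under 0.095. The *Aldoc* share of aldolase was 23.6% ± 0.797 with AAV::eGFP and 22.1% ± 0.90 with AAV::*nsHif1a*, lower by 1.51 points (difference -1.51, adjusted *p* = 0.04), with overlapping ranges (22.7% to 24.5% and 20.7% to 22.9%). Without 1 library the difference was -1.75 to -1.14 points and the adjusted value missed the threshold in 9 of 10 comparisons. In the cells the *Aldoc* share was 0.104% ± 0.0369 and 0.117% ± 0.0288, that is, aldolase mRNA was almost entirely *Aldoa*.

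Between control retinas and control cells, the shares of *Aldoc* (higher in retina by 23.5 points) and *Pfkm* (lower in retina, difference -11.0 points) did not overlap (exact 2-sided permutation test, *p* = 0.016 and adjusted *p* = 0.04 for each). *Pfkl* (4.63 points) and *Pfkp* (6.37 points) had higher shares in the retina with overlapping ranges (adjusted *p* = 0.04 for each), and that of *Hk2* did not differ detectably (1.92 points, adjusted *p* = 0.30). Without 1 library, the differences of *Aldoc* (23.3 to 23.8 points) and *Pfkm* (-11.4 to -10.6 points) hardly moved, and those of *Pfkl* (3.50 to 5.85) and *Pfkp* (5.13 to 7.77) stayed positive. The adjusted *p* of the exact permutation test was then 0.048 to 0.089, in a design with few arrangements.

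**Figure D5:**
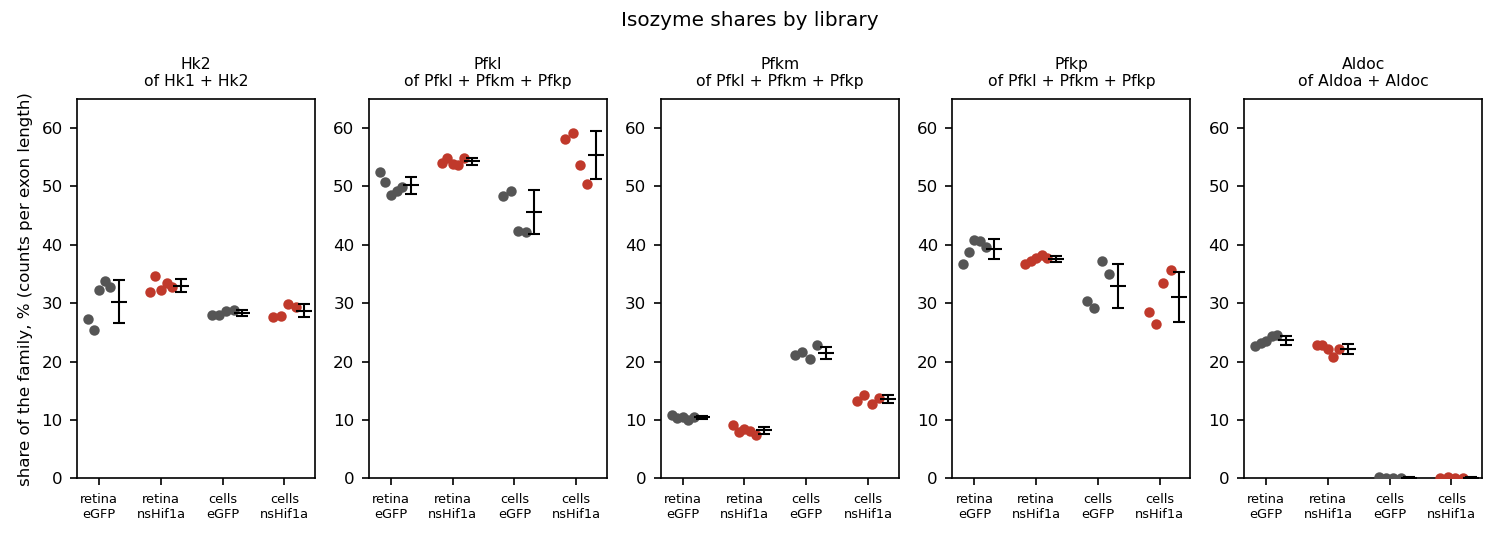
Share of an isozyme in its family (vertical axis, percent of counts per exon length, 0 to 65) in each library of the 4 groups, eGFP in grey and *nsHif1a* in red, with the mean ± SD beside the points. *Pfkl* is higher and *Pfkm* lower with *nsHif1a* in retina and cells, and *Aldoc* is near 0 in the cells.

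Summed over isozymes, all multi-isozyme steps rose in the retina. Phosphofructokinase went from 190 ± 3.89 to 242 ± 21.3 CPM per kb (SD, n = 5 each; 1.27-fold), hexokinase from 218 ± 11.7 to 267 ± 19.1 (1.23-fold) and aldolase from 522 ± 27.3 to 599 ± 19.1 (1.15-fold), each without overlap (exact 2-sided permutation test, adjusted *p* = 0.0079 over 3 steps). In the cells phosphofructokinase rose 1.5-fold, from 37.7 ± 2 to 56.5 ± 2.77 CPM per kb, and hexokinase 1.15-fold, from 72.8 ± 0.51 to 84.2 ± 7.05 (n = 4 each, exact permutation test, adjusted *p* = 0.043 for each). Aldolase was 122 ± 3.34 and 129 ± 7.02 and overlapped (adjusted *p* = 0.14). Hexokinase as a sum thus passed in the cells where neither gene did, in a test over 3 steps and not over all genes. The test took the 4 cell libraries per group as independent, although they fell into 2 sets of like replicates. The responses of *Hk1* and *Hk2* differed between these sets.

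Of the genes further along the pathway, 6 of 11 lower glycolysis genes tested rose in the retina and none fell: *Gapdh* (log2FC 0.32), *Pgk1* (0.32), *Pgam1* (0.23), *Eno1* (0.40), *Pkm* (0.19) and *Ldha* (0.50), which makes lactate. The background for the counts in this paragraph was 3.31% of all genes tested that passed and were higher in the retina, and 2.06% in the cells. In the cells 1 of 9 rose, *Eno2* (0.76), an enolase that was not changed detectably in the retina (0.06). The responses of *Gapdh* and *Eno1* were larger in the retina (differences 0.29 and 0.35, adjusted *p* = 0.048 and 0.033), as was that of *Gpi1*, and the response of *Eno2* was larger in the cells (-0.70, adjusted *p* = 0.0041). *Pfkfb3*, which makes the fructose 2,6-bisphosphate that activates phosphofructokinase, was the only 1 of 7 tested regulators and opposing enzymes that rose in the retina (41.5 ± 4.23 to 82.5 ± 13.4 CPM, log2FC 0.98, adjusted *p* = 0.00027), and the only 1 of 6 in the cells (11.5 ± 1.72 to 29.7 ± 2.40 CPM, log2FC 1.37, adjusted *p* = 0.00041). *Pgm1*, the link of glucose 6-phosphate to glycogen, rose in both (log2FC 0.42 and 0.47) and was the only 1 of 8 branch enzymes to do so.

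The genes nearest to each member over the 4 group means (Euclidean distance of centred log2 CPM among 8393 genes with at least 10 CPM in every group) were *Ddit4* (0.249) and *Itpk1* (0.278) for *Pfkl*, and *Itpk1* (0.163) and *Map3k1* (0.196) for *Pfkp*. They were *Cry1* (0.027) and *Phlpp2* (0.07) for *Hk1*, *Eid1* (0.103) and *Jmy* (0.173) for *Hk2*, *Stxbp5* (0.016) and *AU022252* (0.029) for *Pfkm*, and *Lrrc57* (0.057) and *Cx3cl1* (0.072) for *Aldoa*. *Gpi1* was nearest to *Gm10284* (0.025) and *Gpi-ps* (0.044), and *Tpi1* to *Tpi-rs11* (0.086), a gene that shares sequence with it, and *Selenop* (0.124). *Pfkl* and *Pfkp* shared *Itpk1* as a near gene, but no member was among the nearest 2 of another. *Aldoc* was below 10 CPM in the cells and was not compared. The 4 group means include the difference in level between retina and cells, so a near gene need not respond to *nsHif1a* like the member.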

How the data were processed

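RNA from retinas (5 libraries per group) and 661W cells (4 per group) was analysed, with groups and replicate numbers taken from the sample labels. Stranded mRNA libraries were aligned by the authors with Rsubread 2.18.0 (GRCm39, primary assembly) and counted per gene with featureCounts (antisense mode, gencode M36 basic annotation). The deposited tables hold whole-number counts per gene, one table per experiment, without filtering or normalization, at 12898220 to 17809585 counts per library, which sets the counting error.

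Genes with few counts were filtered by filterByExpr (minimum count 10), libraries were scaled by TMM in edgeR 4.0.16, and voomWithQualityWeights values were fitted on all genes in limma 3.58.1 (R 4.3.3) with Benjamini-Hochberg adjustment. Retina and cells were compared by an interaction term over 18 libraries. Isozyme shares and step sums were tested over libraries by exact permutation. Lengths (merged exons), positions and shared 50-base words were taken from gencode M39, which held 78168 of 78239 genes. Promoter sequences are from RefSeq.

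Results were recomputed with DESeq2 1.42.0, the quasi-likelihood test of edgeR, other weights, size factors, filters and lengths, the replicate block, the *Xist* class, the lens markers and each library left out. Chosen after seeing the data were the counts of near-identical genes added, and the interaction with the cell replicate sets. Members and gene lists were chosen with earlier results of these data known. Named genes are the members, listed pathway genes past the test and the 2 nearest genes of each member. Some listed genes are not reported here. The fits were tested on simulated data with independent libraries, without replicate sets and with larger changes than those of the members. The simulation therefore does not show how well changes of the size found here are detected. In the cells, same-numbered libraries deviated together (r = 0.227 to 0.269), and the replicate block, an alternative fit, paired them by number. The main cell tests, the shares and the step sums are unpaired. The pairs cannot be told apart from the sets 1 and 2 against 3 and 4: eGFP library 1 deviated most like *nsHif1a* library 2, and eGFP library 2 most like *nsHif1a* library 1. Nothing in the labels says whether replicates are separate cultures, so *p*-values may measure technical spread.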

Additional observations from a re-analysis of the deposited data

Results flagged for a closer look

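*Gpi1* responded more strongly in retinas than in 661W cells (log2FC difference 0.29 in the interaction test), and all 18 fits without 1 library passed. In the cells, the responses of *Hk1*, *Hk2* and *Gpi1* were larger in replicates 3 and 4 than in replicates 1 and 2, by log2FC differences of 0.16, 0.24 and 0.14. The sets were recognised from these same libraries. What they stand for is not given in the labels, and its part in these differences was not tested. No library stood apart by Dixon's criterion in any of 56 groups of member levels and isozyme shares.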

How the results depend on the processing

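In the retina, 7 of 9 genes passed, 6 or 7 under all other settings except the libraries with *Xist* counts alone, where 4 passed (*Hk2*, *Gpi1*, *Pfkl* and *Tpi1*). *Hk2* lost the call with edgeR, without sample weights, without scaling and with a replicate block (log2FC 0.43, adjusted *p* = 0.089); same-numbered retinas did not deviate together (r = -0.148 to 0.138), so they share only a number. In the cells, 3 passed (2.06% of all genes higher), 5 with the replicate sets as a covariate (7.77%), 4 with DESeq2 (4.3%), and 3 to 6 without 1 library (0.73% to 16.2%). The replicate block changed no call in the cells. The difference between retina and cells passed for 1 gene, for 2 with the replicate block and for 1 to 3 without 1 library. Adding counts of near-identical genes changed no call, but it cannot restore reads that were counted for no gene. Levels and shares of *Aldoa* and *Pfkm* may be too low for this reason, which was not tested.

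With the *Xist* libraries alone the retinal share differences were 6.67 (*Hk2*, against 2.73 over all libraries), 2.67 (*Pfkl*), -2.42 (*Pfkm*) and -0.764 points (*Aldoc*), and none could reach the threshold with the smaller tail doubled. Without 1 retinal library, the share differences were 3.68 to 4.66 points for *Pfkl*, -2.51 to -2.07 for *Pfkm*, -2.47 to -1.43 for *Pfkp* and -1.75 to -1.14 for *Aldoc*. Without 1 library of the controls, they were 23.3 to 23.8 for *Aldoc*, 3.50 to 5.85 for *Pfkl*, -11.4 to -10.6 for *Pfkm* and 5.13 to 7.77 for *Pfkp*. Without 1 cell library, the step sums differed by 0.16 to 0.25 (hexokinase) and 0.55 to 0.61 (phosphofructokinase) on the log2 scale. With the smaller tail doubled, 4 against 3 libraries cannot give an exact *p* under 0.057. Directions of these differences did not change. Levels per length depend on the gene model: the *Pfkm* share of control retinas was 10.5% with merged exons, 13.8% with the longest coding transcript and 17.4% of counts without length. In control cells it was 21.5%, 27.2% and 33.0%, the last above *Pfkp* (30.4%) on average but with overlapping ranges.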
